A study of Mus musculus with 2 samples.

Results

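The genes described here encode proteins of the red cell surface, most of them carriers of blood group antigens or channels: Rhag, Rhd, Kel, Ermap, Aqp1, Icam4, Slc14a1, Bsg, Cd44 and Cd47. They were taken by symbol from the mouse GENCODE M21 annotation, where they are 10 of 21938 protein-coding genes. For each, the H3K4me3 peaks within 1000 bp of any annotated transcription start site (TSS) and the peaks inside the gene body were read from the deposited peak lists. Trimethylation of histone H3 at lysine 4 (H3K4me3) was measured by ChIP-seq in the MEL line, immortalized mouse erythroleukaemia cells that stand for immature red cell precursors. There were 2 replicate libraries of 1 group, with the same antibody target and no second condition, treatment or differentiated sample. The labels call them biological replicates 1 and 2 and give the same cell sample for both, so whether the spread between them covers separate cultures is unclear.

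Red cells carry a dense set of surface glycoproteins, and the antigens that differ between people on these proteins define the blood groups. Rhag and the Rh polypeptide form the core of a membrane complex to which Cd47 and Icam4 belong, while Aqp1 and Slc14a1 pass water and urea. Most of this surface is built during erythroid maturation, under GATA1 and KLF1, whose binding sequences are GATA and CACCC motifs. H3K4me3 lies at the starts of genes that are transcribed or ready to be, usually as a pair of blocks on the nucleosomes on either side of the start.

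The stretches before the RefSeq starts of 7 of these genes are shown first, because most of the motif matches described further on lie in them. They are RefSeq promoters on GRCm38.p6, the build of the mm10 lists. Each runs 5′ to 3′ on the gene's strand, from 140 bases before the RefSeq start through its first 5 bases. For Icam4 only 30 bases are shown, which end 31 bases before that start. Capitals mark the GATA hexamers AGATAA and TGATAA and the pentamer CACCC; matches on the opposite strand appear as the reverse complement. No capital belonged to 2 motifs.
Rhag, chr17:40811009-40811153, plus strand: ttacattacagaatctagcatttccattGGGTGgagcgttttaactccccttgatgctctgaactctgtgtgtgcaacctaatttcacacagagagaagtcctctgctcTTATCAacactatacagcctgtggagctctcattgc
Rhd, chr4:134864396-134864540, plus strand: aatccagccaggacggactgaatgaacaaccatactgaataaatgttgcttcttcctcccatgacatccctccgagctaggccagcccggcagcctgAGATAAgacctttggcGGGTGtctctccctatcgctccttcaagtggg
Kel, chr6:41704321-41704465, minus strand: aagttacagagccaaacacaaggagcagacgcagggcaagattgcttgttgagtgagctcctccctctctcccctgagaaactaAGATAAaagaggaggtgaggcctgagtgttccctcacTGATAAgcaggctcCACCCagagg
Ermap, chr4:119189991-119190135, minus strand: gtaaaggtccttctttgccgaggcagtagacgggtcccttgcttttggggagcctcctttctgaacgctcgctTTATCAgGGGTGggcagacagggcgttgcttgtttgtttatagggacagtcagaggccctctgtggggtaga
Icam4, chr9:21029372-21029401, plus strand: gtggccaGGGTGccttcTTATCTcctgcgg
Aqp1, chr6:55336159-55336303, plus strand: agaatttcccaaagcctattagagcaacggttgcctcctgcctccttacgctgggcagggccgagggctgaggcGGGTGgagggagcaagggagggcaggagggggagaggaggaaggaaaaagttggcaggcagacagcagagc
Cd47, chr16:49855514-49855658, plus strand: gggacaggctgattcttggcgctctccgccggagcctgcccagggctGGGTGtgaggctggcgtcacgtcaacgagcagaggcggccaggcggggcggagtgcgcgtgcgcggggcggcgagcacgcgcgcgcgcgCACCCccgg

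All 10 genes had an H3K4me3 peak at a TSS. This held in the replicated list, in each replicate list and in the list from pooled reads. Among all protein-coding genes the share with such a peak was 50.3% in the replicated list, 50.4% in replicate 1, 50.9% in replicate 2 and 50.6% in the pooled list. The genes were chosen with earlier results of these data known, so their count is a description and no test was made.

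Most of the domains were wider than the median of all genes with a TSS peak, while the strength of the peaks ranked differently in the 2 replicates. A domain here is a run of replicated peaks with no gap over 1000 bp between them, and the widest domain at a TSS was taken for each gene. The median width was 3354 bp over the 10 genes and 2258 bp over the 11037 protein-coding genes with a TSS peak. Of the 10, 8 lay above that second median, where the background share is 50% by construction. Peak strength is the authors' signal value, a score for each peak that no source used here defines. The median of the strongest TSS peak was 11.55 for the 10 genes and 13.78 for all genes with a TSS peak, and in the replicated list only Bsg, Cd44 and Cd47 lay above the latter. In replicate 1, 5 of the 10 genes lay above the list's own median (Rhd, Kel, Ermap, Bsg and Cd44), and the medians were 12.35 and 12.13. In replicate 2 only Bsg and Cd47 did, with medians of 11.79 and 15.5.

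**Figure D1:**
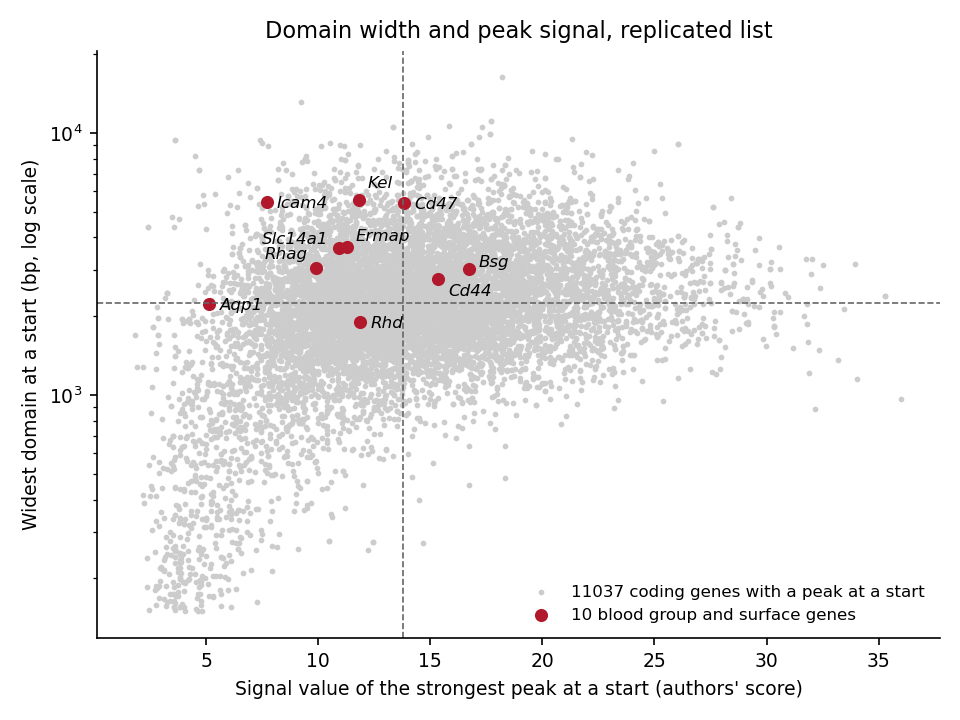
Widest domain at a TSS (bp, log scale) against the authors' signal value of the strongest TSS peak, replicated list. Grey points are 11037 protein-coding genes with a TSS peak, red points the 10 surface genes, and dashed lines the medians of the grey points, 2258 bp and 13.78. Of the red points, 8 lie above the width median and 7 lie left of the signal median.

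Domain widths differed most between the replicates at Ermap, with 7085 bp in replicate 1 and 3759 bp in replicate 2, and then at Aqp1, with 3154 bp and 1855 bp. The standard deviation (n = 2) was 43.4% of the mean at Ermap and smallest at Icam4, 1.47%. Domains were wider in replicate 1 at 8 of the 10 genes, and over all genes with a TSS peak the median was also wider in that list, 2409 bp against 2228 bp. The share of bases found in both replicate lists, out of those in either, within the replicated domain ranged from 68.0% at Kel to 98.5% at Ermap. Its median was 83.9% for the 10 genes and 88.8% for all genes with a TSS peak. At Ermap the replicates thus differed beyond the edges of the replicated domain and hardly within it.

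**Figure D2:**
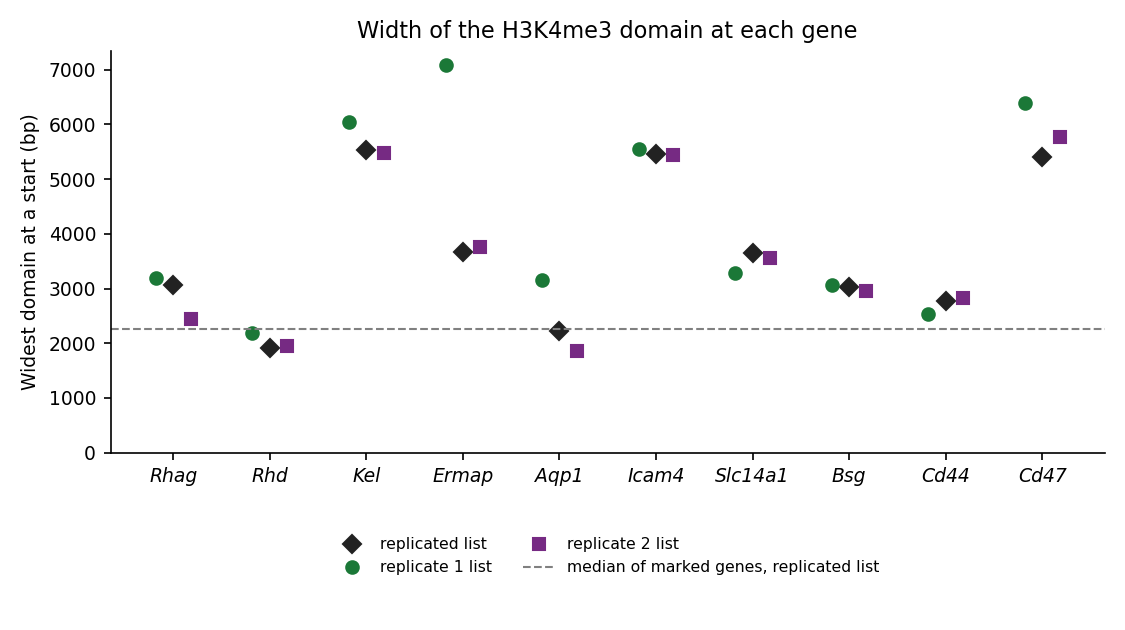
Width of the widest domain at a TSS (bp) for each gene in the replicated list (diamonds), replicate 1 (circles) and replicate 2 (squares). The dashed line is the median of genes with a TSS peak in the replicated list, 2258 bp, and the gap between the 2 replicates is widest at Ermap, 7085 bp against 3759 bp.

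Rhag and Rhd, the genes of the Rh complex core, differed in the layout of their peaks. Rhag encodes the Rh-associated glycoprotein, an ammonium channel needed for Rh proteins to reach the surface. The gene, on chromosome 17 (40811126 to 40840754, plus strand, ENSMUSG00000023926.8), had a single TSS peak, from 40811158 to 40813085, with a signal value of 9.92. By that value it ranked at percentile 19.6 among genes with a TSS peak, and at 32.8 and 8.3 within replicates 1 and 2. Its domain was 3066 bp wide (percentile 75.7), with 3196 bp in replicate 1 and 2439 bp in replicate 2. The summit lay in an intron, 848 bp downstream of the nearest start, and shifted by 11 bp between the replicates. No replicated peak lay upstream of the Rhag starts nearer than 40807491, so the mark was one-sided there.

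Rhd, which carries the mouse Rh polypeptide, had peaks on both sides of its start. The gene lies on chromosome 4 (134864536 to 134896172, plus strand, ENSMUSG00000028825.7). A peak of 481 bp ended 99 bp before the start and had the higher signal value, 11.9, while a peak of 1347 bp from 134864519 covered the start and had 6.64. Replicate 1 gave the upstream peak 13.0 (percentile 58.4) and replicate 2 gave it 11.2 (percentile 20.7). Its summit lay 242 bp upstream of the start, on the other side from those of 8 of the 10 genes. The Rhd domain, at 1909 bp, was the narrowest of the set in the replicated list (percentile 35.2) and measured 2189 and 1946 bp in the replicates. In replicate 2 that of Aqp1 was narrower.

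Kel, Ermap and Icam4 encode a surface peptidase and 2 proteins of the immunoglobulin superfamily. Kel, the Kell antigen, is a zinc endopeptidase that activates endothelin, and had the widest domain of the set in the replicated list, 5537 bp (percentile 97.4). Its locus is on chromosome 6 (41686330 to 41704339, minus strand, ENSMUSG00000029866.13). The domain was 6047 bp wide in replicate 1 and 5473 bp in replicate 2. In each replicate, as in the pooled list, that of Cd47 was wider, and in replicate 1 that of Ermap was the widest. Both replicates held the 2 TSS peaks of Kel, with signal values of 11.8 (percentile 33.8) and 7.85 in the replicated list. The stronger one ranked at percentile 79.7 in replicate 1 (15.9) and 31.9 in replicate 2 (12.9). That width rests on weak flanking peaks at both ends, of signal 2.58 and 4.98, and with a merging gap of 500 bp it was 2756 bp. The strongest summit lay 169 bp downstream of the start, in an untranslated exon, and the replicates placed it 508 bp apart.

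Ermap, the Scianna antigen, is a protein of the butyrophilin kind on erythroid cells. Its place is chromosome 4 (119175457 to 119190011, minus strand, ENSMUSG00000028644.16). A TSS peak of 3108 bp covered all 7 annotated starts and a weak peak (3.50) lay 830 bp upstream, together 3670 bp (percentile 85.6). The strong peak had a signal value of 11.3, at percentile 29.4. Its rank differed between the replicates more than that of any other gene of the set, at percentile 96.0 in replicate 1 (20.5) and 28.4 in replicate 2 (12.4). Replicate 1 alone also listed 5 narrow peaks further inside the gene, of 167 to 385 bp. Its domain reached further on that side, to 119184905 against 119187567 in replicate 2. It also reached further upstream, to 119191989 against 119191325.

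Icam4, the Landsteiner-Wiener antigen, is an adhesion protein that binds integrins. The gene is short, 1223 bp on chromosome 9 (21029373 to 21030595, plus strand, ENSMUSG00000001014.6), and its peak from 21029434 to 21030809 ran past its end. That peak had a signal value of 7.69 (percentile 8.7, and 21.2 and 6.6 in the replicates). Its summit lay 1216 bp downstream of the nearest start and beyond the gene end in the replicated list and in both replicates, with a shift of 8 bp. The Icam4 domain, 5454 bp (percentile 97.2), also took in a peak of 2946 bp that began 1646 bp from the nearest Icam4 start and lay outside the gene, at the start of the neighbouring adhesion gene Icam5. The width is therefore not a width of Icam4 alone. In the replicates it was 5552 and 5438 bp.

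The water and urea channels were marked in different ways. Aqp1, the water channel that carries the Colton antigens, ranked lowest of the set by its strongest peak in the replicated list and replicate 1. On chromosome 6 (55336432 to 55348555, plus strand, ENSMUSG00000004655.5), its TSS peak of 1849 bp had a signal value of 5.14, at percentile 3.2. The replicates gave 5.65 (percentile 5.9) and 8.25 (percentile 9.1), and in replicate 2 Icam4 and Rhag ranked lower. The domain was 2230 bp wide (percentile 48.9), with 3154 bp in replicate 1 and 1855 bp in replicate 2, on either side of the median of all genes with a TSS peak. The summit lay 1054 bp downstream of the only annotated start, in an intron. The RefSeq start lies 133 bp upstream of that of GENCODE, and no base of its window of 300 bases lay in a replicated peak.

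Slc14a1, the urea transporter that carries the Kidd antigens, was marked only at internal starts. It lies on chromosome 18 (78100091 to 78142119, minus strand, ENSMUSG00000059336.14). Its 5′-most start, at 78142119, belongs to 1 transcript and had no peak within 1000 bp in any list. The peaks lay at the other 2 starts, 18693 and 18788 bp further downstream. With only the 5′-most start of each gene, 9 of the 10 genes and 46.9% of all protein-coding genes had a peak. Of all protein-coding genes with a TSS peak, 6.8% had none at the 5′-most start. The strongest Slc14a1 peak, 2041 bp from 78121234, had a signal value of 10.9 (percentile 26.7, and 41.8 and 15.9 in the replicates), and peaks of 6.64 and 5.51 lay upstream of it. The domain measured 3642 bp (percentile 85.3), and 3282 and 3561 bp in the replicates.

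**Figure D3:**
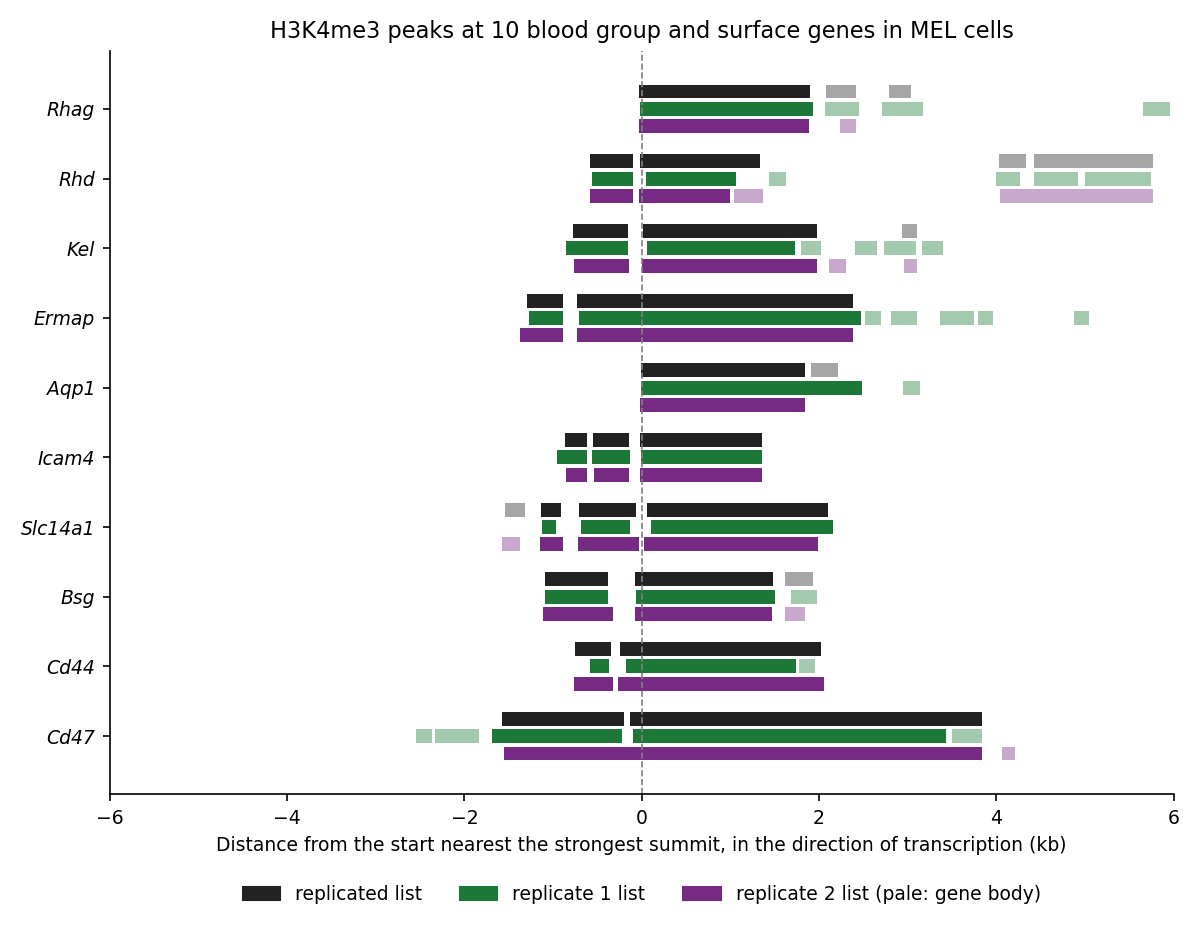
H3K4me3 peaks within 6 kb of the start nearest to the strongest summit, in kb along the direction of transcription, for each gene in the replicated list (black), replicate 1 (green) and replicate 2 (purple). Full colour marks TSS peaks and pale colour gene body peaks, and peaks outside a gene and over 1000 bp from its starts are not drawn. The peaks of Rhag and Aqp1 begin at the start, and those of the other 8 genes flank it or reach across it.

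Bsg, Cd44 and Cd47, which many cell types express, had the highest signal values of the set in the replicated list. In replicate 1 the highest were Ermap and Kel. Bsg, or basigin, escorts lactate transporters to the membrane and carries the Ok antigen. It lies on chromosome 10 (79704491 to 79711969, plus strand, ENSMUSG00000023175.15), and its strongest peak had a signal value of 16.7 (percentile 71.5), with percentiles of 59.3 and 70.2 in the replicates. A second peak upstream, from 79703481 to 79704194, had 14.1 and is shared with the start of a small nuclear RNA gene, Gm25794. The Bsg domain was 3024 bp wide (percentile 74.8), and 3061 and 2952 bp in the replicates.

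Cd44, the hyaluronan receptor that carries the Indian antigens, had a peak of 2269 bp with a signal value of 15.3 (percentile 62.0). The gene lies on chromosome 2 (102811141 to 102901665, minus strand, ENSMUSG00000005087.17). Percentiles in the replicates were 79.0 and 46.4, and the replicates placed the summit 652 bp apart. A second peak of 405 bp and signal 6.70 lay upstream, and the domain was 2777 bp wide (percentile 68.6), with 2536 and 2824 bp in the replicates.

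Cd47, the ligand of the phagocyte receptor SIRPα, held more peaks than the other genes of the set. It lies on chromosome 16 (49800533 to 49915010, plus strand, ENSMUSG00000055447.19) and has 7 annotated starts. The 5′-most start belongs to a single transcript, Cd47-206, and had weak peaks in the replicated list, of signal 3.69 over it and 2.59 upstream. A cluster of 5 starts, 54833 to 55254 bp further downstream, had peaks of 10.9 and 13.8 (percentile 50.4). The RefSeq start, at 49855654, lies in that cluster. Replicate 2 did not list the upstream peak of 2.59. Its only peak at the 5′-most start had a signal value of 2.95 and began at 49800585, downstream of that start. The strongest TSS peak lay at a start over 1000 bp from the 5′-most one in Cd47 and Slc14a1, and in 12.1% of all genes with a TSS peak.

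The Cd47 starts were split by a gap of 63 bp in the replicated list that replicate 2 did not have. Replicate 2 listed 1 peak of 5388 bp there, with a signal value of 19.02 (percentile 72.1). Replicate 1 listed 2 peaks, of 1474 and 3531 bp, with signal values of 11.7 (percentile 46.0) and 10.03. The domain was 5411 bp in the replicated list (percentile 97.0), 6388 bp in replicate 1 and 5764 bp in replicate 2. An antisense gene, Gm15518, shares a TSS peak with Cd47, and the reads cannot be assigned to either from the lists.

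Gene body peaks away from the starts were found at 8 of the 10 genes, all but Ermap and Icam4. Of all protein-coding genes 19.6% had such a peak in the replicated list, and of those with a TSS peak 28.2%. Cd47 held 13 of the 23 peaks, and 16 protein-coding genes, Cd47 included, held at least that many; the highest number in 1 gene was 188. Each of the 23 had a lower signal value than the strongest TSS peak of its gene, and 22 had the summit in an intron. Replicate 1 listed such peaks for 8 of the 10 genes, with a background of 26.3%. These were not the same 8, as Ermap had them and Slc14a1 did not. Replicate 2 listed them for 7, all but Ermap, Aqp1 and Icam4, with a background of 23.1%. The replicated count fell to 4 of the 10 genes (Rhag, Rhd, Cd44 and Cd47) when peaks within 2500 bp of a start were left out, with a background of 15%. It was also 4 with peaks of −log10 q of at least 5, with a background of 14%. The backgrounds for the replicates and for these settings are shares of all protein-coding genes. All 10 genes had a TSS peak. The share among such genes was computed only for the replicated list at 1000 bp, where it was the higher of the 2.

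In Cd47, 9 of the 13 body peaks lay between the 5′-most start and the internal cluster and 4 lay beyond it. The 9 had signal values from 2.97 to 8.2 and widths from 151 to 1188 bp. Replicate 1 listed 12 peaks in that stretch and replicate 2 listed 9, so peaks along the stretch were present in both. The strongest in the replicated list, from 49838708 to 49839812, had 8.20 there, 6.41 in replicate 1 and 5.71 in replicate 2. Other peaks of the stretch were stronger in both replicates, with highest values of 7.24 and 7.39.

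**Figure D4:**
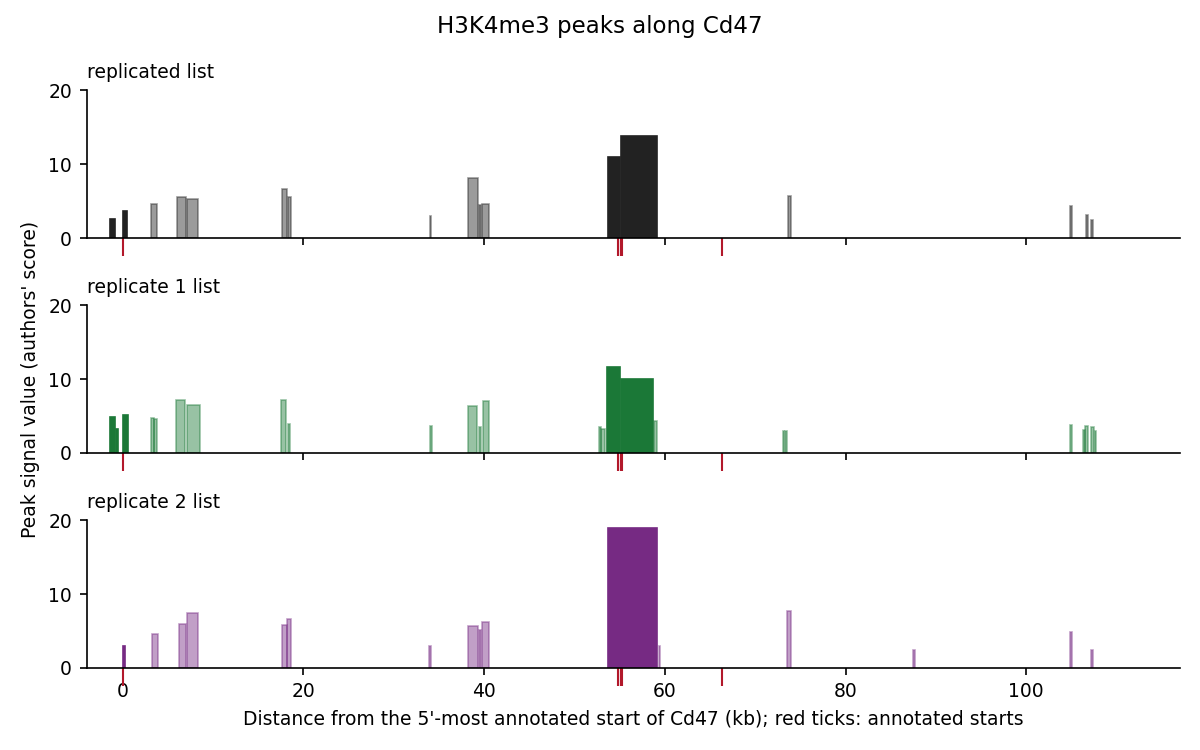
Signal value (authors' score) of each peak along Cd47 against distance from the 5′-most start (kb), in the replicated list and both replicates. Bar width is peak width, full colour marks TSS peaks and pale colour gene body peaks, and red ticks are annotated starts. The 5′-most start has peaks of 3.69 and 2.59 in the replicated list, and the internal starts near 55 kb have peaks of 10.9 and 13.8.

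Outside Cd47 the 10 body peaks were small, from 174 to 1343 bp wide with signal values from 2.499 to 5.997. The widest, in Rhd from 134868956 to 134870298, had its summit 5157 bp downstream of the start and a signal value of 5.997. Replicate 2 listed it within a peak of 1722 bp (7.60), and replicate 1 split it into peaks of 503 and 753 bp (6.14 and 3.77). In Cd44 a peak of 863 bp and signal 4.05 lay 33966 bp downstream of the 5′-most start, in an intron, and both replicates listed peaks there. Rhag held 3 body peaks of signal 4.85, 4.07 and 2.50. The body peaks of Kel (2.58), Aqp1 (3.77), Slc14a1 (3.68) and Bsg (4.16) were the outermost peaks of the TSS domains on that side. With 2 of Rhag they make 6 of the 23 body peaks that are also counted in a domain width; only Rhag, Rhd, Cd44 and Cd47 had body peaks outside their widest TSS domain. Of the 23, 21 were overlapped by a peak in replicate 1, the exceptions being 1 each in Slc14a1 and Cd47. In replicate 2, 20 were overlapped, and 1 each in Rhag (4.07), Aqp1 and Cd47 was not. The Aqp1 peak was overlapped in replicate 1 by the TSS peak and not by a body peak.

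Moving the 1000 bp limit left the TSS count of the 10 genes unchanged, but not their gene body count. The farthest peaks still counted at a start lay 849 bp (Cd47), 830 bp (Ermap) and 814 bp (Slc14a1) away. The nearest beyond the limit lay at 1220 bp (Slc14a1), 1620 bp (Bsg), 1646 bp (Icam4) and 1667 bp (Kel). All 10 genes kept a TSS peak with a window of 500 bp, with 49.6% of all genes. They also kept one with 2500 bp, with 51.9%. Body peaks were found at 8 genes with 500 bp. With 2500 bp that number was 4, as Kel, Aqp1, Slc14a1 and Bsg dropped out.

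Several starts lay between peaks. At 8 of the 10 genes there were 2 or more TSS peaks, against 67.7% of all genes with a TSS peak. At 6 genes an annotated start lay in a gap of no more than 1000 bp between peaks, against 37.4%. These gaps measured 163 bp at Kel, 122 bp at Slc14a1, 121 bp at Icam4, 103 bp at Cd44 and 63 bp at Cd47, and the widest, at Bsg, ran from the end of a peak at 79704194 to the next at 79704496. The strongest summit lay downstream of the nearest start in 8 genes and upstream in Rhd and, by 21 bp, in Cd44, while 68.7% of all genes with a TSS peak had it downstream. The median position was 213.5 bp downstream for the 10 genes and 104 bp for all. At Kel, Ermap, Aqp1, Cd44 and Cd47 the replicates placed the summit more than 300 bp apart, so single summit positions are loose there.

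Promoters with few CpG dinucleotides made up most of the set. In a window of 500 bases to each side of the 5′-most start, 8 genes were of the low-CpG class (observed to expected CpG under 0.4), Icam4 was intermediate, and Bsg was of the high-CpG class (at least 0.6, with a GC share of at least 0.5). For comparison, 8785 of all 21938 protein-coding genes were low-CpG, and 1456 of the 11037 with a TSS peak. Among protein-coding genes, 16.6% of 8785 low-CpG promoters had a TSS peak, against 53% of 3413 intermediate and 79.8% of 9740 high-CpG promoters. The lowest ratio, 0.04, was found at Rhag and at Kel, whose GC contents were 33.6% and 46.8%. At the Cd47 start nearest the strongest summit the ratio was 0.72 with a GC content of 70.8%. Its 5′-most start had 0.2 and 44.5%, so the class of Cd47 depends on which start is used. With the start nearest the strongest summit for each gene, 7 genes of the set were low-CpG, 1 was intermediate and 2 were high-CpG. Words of 32 bases that recur in chromosomes 1 to 19, X and Y made up at most 6.2% of any of these promoters.

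GATA hexamers were present in most of the promoter windows. Of the 10 genes, 8 were matched by symbol to a RefSeq window of 300 bases, from 250 bases before the start through the first 50; Bsg and Slc14a1 were not matched. AGATAA or TGATAA occurred on either strand in 6 of the 8 windows, 75%, and in 18.6% of all 32851 RefSeq windows. With 1 window for each protein-coding gene, the first listed where there were several, the share was 15.8%. It was 18.7% of the windows of low-CpG genes with a TSS peak, 28.4% of those of low-CpG genes without one, and 7.35% of those of high-CpG genes with one. The median GC content of these classes was 55.3%, 46.3% and 63.0%, in that order, and 51.5% in the 8 windows of the set. None of the classes is thus matched to the set in base content. The windows of Aqp1 and Cd47 held neither hexamer. CACCC occurred in 7 of the 8 windows, all but Cd44, and in 57.5% of all. The E-box CANNTG occurred in 4 of the 8 and in 72.3% of all. A match is only a string of letters, and no binding was measured.

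**Figure D5:**
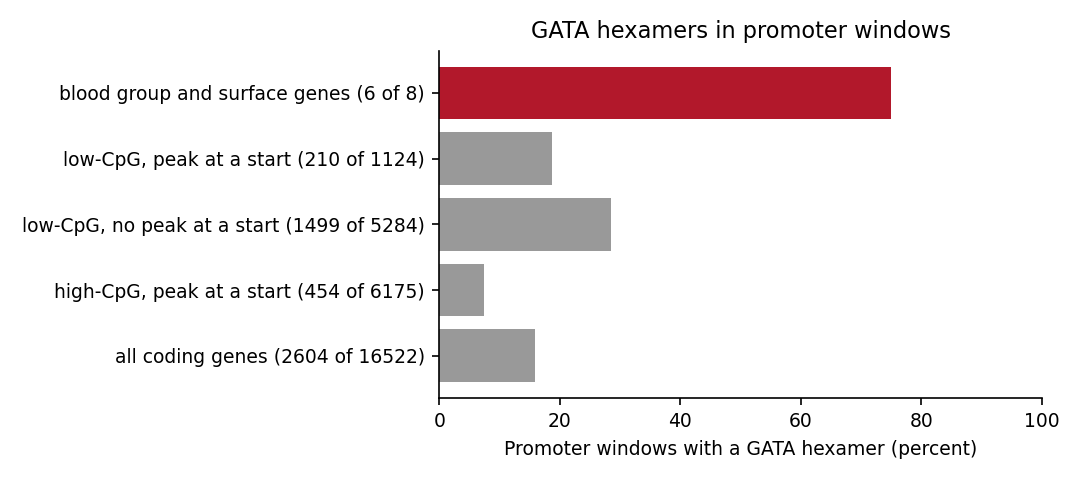
Percent of RefSeq promoter windows of 300 bases that hold AGATAA or TGATAA on either strand, for the matched surface genes (red, 6 of 8) and for classes of protein-coding genes (grey), with counts in the axis labels. The red bar stands at 75%, and the grey bars run from 7.35% to 28.4%.

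The GATA hexamers lay close to the starts and mostly outside the H3K4me3 peaks. In the stretches shown above, the Rhd match begins 43 bases before the RefSeq start, those of Kel 56 and 19 bases before it, that of Icam4 43, that of Rhag 31 and that of Ermap 67 bases before it. The Cd44 match, 233 bases before the start, is outside the shown stretches. Of the 7 matches, 5 lay outside the replicated peaks (71.4%). At Rhd, Kel and Icam4, 4 matches lay in the gap between the upstream and the downstream peak, and at Rhag the match ended 35 bp before the edge of the peak. The Rhd match lay 56 bp from the peak on its left and 21 bp from that on its right. The Icam4 match, from 21029389 to 21029394, lies downstream of the 5′-most GENCODE start at 21029373 and so within the annotated gene. Ermap and Cd44 had their matches inside a peak.

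For comparison, among 774 GATA matches in windows of genes with a TSS peak that hold peak bases, 29.5% lay outside the peaks, as did 32.3% of the bases of those windows. The windows of this set with a match varied in that respect. Of 300 bases, peaks covered 41 at Rhag, 137 at Kel, 179 at Icam4, 199 at Cd44, 219 at Rhd and 300 at Ermap. Within 150 bases of the strongest summit on either side, none of the 10 genes held either hexamer, and 11.2% of 9757 such windows did. With only 10 windows, that count is near the background share and cannot be told apart from it. The comparison of motif and peak positions was chosen after the data were seen and covers 7 matches, so it describes these promoters.

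Other genes of blood group systems were marked in part. Of 34 further such genes, 23 had a TSS peak (67.6%, against 50.3% of all protein-coding genes), with 23 in replicate 1 and 25 in replicate 2. Their median domain, 2079 bp, was narrower than that of all genes with a TSS peak. The widest lay at Ache (3986 bp), the acetylcholinesterase of the Cartwright group, Slc29a1 (3424 bp), a nucleoside transporter, and Gypc (3334 bp), a sialoglycoprotein that anchors the membrane skeleton. The 23 genes of the replicated list and the 23 of replicate 1 were not the same. Rhcg, named here after its value was seen, had a replicated peak of 228 bp (signal 3.83, percentile 1.3) that replicate 1 lacked. It was lost with −log10 q of at least 5. Replicate 1 had Ackr1 in its place. Of the genes for glycosyltransferases that build carbohydrate antigens, some were marked and some not. Gbgt1 (14.6), Gcnt2 (11.1) and B4galnt2 (16.4), named here after their values were seen, had TSS peaks in the replicated list and both replicates. No replicated TSS peak was listed for A4galt, Abo, B3galnt1, Fut1 or Fut2, although Fut1 had one in replicate 2 and in the pooled list. The same held for Ackr1, a chemokine receptor with a peak in replicate 1 alone, and Cd59a, a complement regulator with a peak in replicate 2 alone. It also held for Aqp3, a glycerol channel, Rhbg, a Rhag relative of other tissues, Sema7a, a semaphorin, and Slc4a1, the anion exchanger. At Cd59a and Slc4a1, 19.3% and 12.3% of the promoter words recur in the genome, and the part of this in the missing peaks was not tested.

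Further transporters of the red cell surface were almost all marked. Of 19, 18 had a TSS peak (94.7%, against 50.3% of all protein-coding genes), with the same number in each replicate. The median domain of the 18 was 3768 bp. The widest lay at Slc7a5 (6571 bp), an amino acid transporter, Slc16a1 (4996 bp), a lactate transporter that depends on Bsg, and Kcnn4 (4770 bp), the calcium-gated potassium channel of red cells. Atp1b1, a subunit of the sodium pump, had no peak within 1000 bp and gained one with a window of 2500 bp.

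Markers of the cell line were read the same way. TSS peaks lay at 8 of 10 erythroid markers, all but Slc4a1 and Epb42 (Epb42 had a TSS peak in both replicate lists), at 0 of 4 lymphoid and 0 of 4 myeloid markers, at 2 of 4 megakaryocyte markers, at 1 of 3 endothelial markers (Pecam1, whose peak is shared with Milr1) and at 1 of 3 fibroblast markers (Col1a1). The replicated list held 37387 peaks, that of replicate 1 held 51790 and that of replicate 2 held 41508. Without read counts in the lists, depth is unknown, and where a gene has no peak the reads may have been too few.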

How the data were processed

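ChIP-seq of H3K4me3 was measured in 2 libraries of MEL cells, both of 1 group. Per the labels, the size range was 150 to 350 bp. The authors deposited narrowPeak lists on mm10: 1 for each replicate, 1 from pooled alignments and 1 of replicated peaks, each made with a control, per the deposited notes. The authors' values are a signal value for each peak, a score of undefined scale that was ranked only within a list, and −log10 q. No source used here names the aligner, the peak caller or the rule for replicated peaks. A list on mm9 was not used here. Depth is unknown, so no interval could be given.

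Deposited peaks on the autosomes (1 to 19) and on X and Y were joined to GENCODE M21 protein-coding genes on GRCm38 by an overlap of at least 1 bp with each TSS window of 1000 bp or gene body. A percentile gives a gene's rank among genes with a TSS peak in the same list. Promoter windows are from RefSeq. No test was run, since there is 1 group. The counting was checked on simulated data. As alternatives, the TSS window was set to 500 or 2500 bp, and results were recomputed with the 5′-most start alone, −log10 q of at least 5, each peak given to the nearest start, merging gaps of 500 and 2000 bp, the pooled list and each replicate list alone. The genes and lists were chosen with earlier results of these data known. Named were the 10 genes, from both other lists the 3 widest and all unmarked genes up to 12, and neighbours that share a TSS peak. Python 3.11.15, numpy 2.4.6, pandas 2.3.3, numba 0.67.0 and matplotlib 3.10.9 were used.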

Additional observations from a re-analysis of the deposited data

How the results depend on the processing

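A TSS peak was found at all 10 genes under each alternative except the 5′-most start alone, which left 9 (without Slc14a1). The count with gene body peaks was 8, and was 4 with a TSS window of 2500 bp and 4 with −log10 q of at least 5. The median domain width, 3354 bp, was 3045 bp with a merging gap of 500 bp and 3006 bp with −log10 q of at least 5. It ranged from 3239 to 3256.5 bp when either replicate was left out, and at least 8 of the 10 genes stayed above the median of all genes with a TSS peak under every alternative run for widths. Of the 10 widths, 8 moved by more than 1 SD between replicates without replicate 2, and 1 without replicate 1 (Rhag, to 2439 bp). With the pooled list 1 moved (Cd47, to 6378 bp), with a gap of 500 bp 1 (Kel) and with a gap of 2000 bp 0. That SD comes from the same 2 replicate widths. A move without either replicate thus reflects mainly how near the other lay to the replicated list, and does not measure stability. Icam4 moved without replicate 2, at 5552 bp against 5454 bp. Aqp1 did not move without replicate 1, at 1855 bp against 2230 bp. The number of the 10 genes with a strongest TSS peak above the list's median was 3 in the replicated list, 5 in replicate 1 and 2 in replicate 2. With 5′-most starts alone, 19 of the 34 other blood group genes and 46.9% of all protein-coding genes were marked. No paired analysis was possible because the data hold 1 group and no comparison between groups. Depth is unknown, so weak peaks cannot be told from shallow sequencing.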
